A study of Homo sapiens with 12 samples.

Results

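Long intergenic noncoding RNAs with LINC symbols were examined in HT1376, a human bladder cancer cell line, by RNA sequencing of total RNA. The members are the genes whose symbol is LINC followed by a number and whose mean level over the 12 libraries was at least 1 CPM (counts per 1e+06 counts of the library), and were thus selected on the measured level. Of 1851 such gene records, 1133 had at least 1 count and 248 reached this level, out of 60666 genes in the table. The last members inside the threshold were LINC01410, LINC00896 and LINC01293 (1.03, 1.01 and 1.01 CPM), and the first outside were LINC00390, LINC02344 and LINC00939 (0.995, 0.982 and 0.958 CPM). Because the mean runs over all libraries, a member silent in one line had to be high in the other to be included.

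There were 4 groups of 3 libraries. HT1376 CT is the control line, labelled as wild type and, by the study's methods, a CRISPR line with a control guide. HT1376 FOXP3 KO was made with guides to exon 2 of FOXP3. Each line was left untreated or given 100 ng/mL of interferon-γ (IFNγ) for 48 h. Each line is 1 single-cell clone, so the loss of FOXP3 and other differences between the clones cannot be told apart in any comparison of the lines. FOXP3 itself had 0 to 3 counts in each library (0 to 0.129 CPM), which is too few to check the labels, and a deletion in 1 exon need not lower the count of the gene. Nothing in the labels says that the 3 libraries of a group come from separate cultures, so the spread between them may be technical.

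Libraries held 4490684 to 39270042 counts, and the shallowest was IFNγ-treated HT1376 CT number 12. The members took 0.235% to 0.311% of the counts of a library, and 234 to 247 of the 248 had at least 1 count in each. Library number 12 was the highest of its group in all 4 groups for 22 members (8.87%, beside 7.05% of all genes with a mean of 1 CPM or more) and the lowest in all 4 for 15 members (6.05%, beside 13.9%). Without the 4 libraries numbered 12, 129 members differed between the untreated lines (edgeR quasi-likelihood test, adjusted p under 0.05) and 120 under IFNγ, beside 129 and 118 with them. The genes fixed as a check of the treatment (IRF1, GBP1, GBP5, CIITA, CXCL10, IDO1, TAP1, PSMB9 and B2M) rose in both lines, 9 of 9 in each, and 8 of the 9 were lower in treated HT1376 FOXP3 KO than in treated HT1376 CT. Of 9 epithelial markers, 5 differed between the untreated lines. KRT7 and TP63 were higher in HT1376 FOXP3 KO (log2 fold changes 0.95 and 0.60), and EPCAM, GATA3 and CDH1 were lower (-1.92, -0.68 and -0.65). KRT8, KRT18, KRT19 and KRT5 were not called, the first 3 at mean levels of 554 to 1505 CPM and KRT5 at 2.78 to 5.14 CPM over the groups. Of 11 markers of fibroblasts, leukocytes and endothelium, 4 rose and 3 fell from untreated HT1376 CT to untreated HT1376 FOXP3 KO, and their summed level was 48.9 to 65.0 CPM in HT1376 CT against 475 to 705 CPM in HT1376 FOXP3 KO. The matrix genes DCN, LUM and COL1A2 made up most of that sum (106 ± 26.3, 79.6 ± 25.7 and 362 ± 76.2 CPM in untreated HT1376 FOXP3 KO, SD, n = 3). COL1A1, another matrix gene, went the other way, from 28.7 ± 2.89 to 7.80 ± 0.663 CPM (log2 fold change -1.87, adjusted p = 6.30e-06). The leukocyte markers PTPRC, CD3E and LYZ were at mean levels of 0 to 1.2 CPM in every group. The part of these markers in the line differences below was not tested.

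Long noncoding RNAs are transcripts, often spliced and polyadenylated, that are not translated into long proteins. They act in different ways, among them guiding chromatin regulators, binding RNA-binding proteins or microRNAs, and affecting neighbouring genes through the act of transcription itself. A LINC symbol is a serial name for a gene lying between coding genes and says nothing of function, and such RNAs are known for low levels and for differing strongly between tissues and between tumours. All 248 members were found by gene ID in GENCODE 44 on GRCh38. That release names 226 of them alike and gives 237 as lncRNA genes. The other 11 have another biotype, such as transcribed pseudogene. LINC00843 (now TIMM23B-AGAP6) and LINC00514 (now GREP1) are given as protein-coding. The merged exons of a member covered 159 to 33198 bases, with a median of 3783. In 112 members at least 1 exon overlapped an exon of another gene, on the same strand in 41 and on the opposite strand in 91, and whether the counting used strand is not stated, so reads of these genes cannot be told apart with certainty.

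Expression was concentrated in few members. Mean CPM summed to 2772 over the 248, of which the 5 highest held 22.1% and the 20 highest 51.4%. The median member was at 3.53 CPM, 65 members were at 10 CPM or more and 74 lay between 1 and 2 CPM. The 5 with the highest mean CPM were LINC00472 (208.6), LINC01287 (114.8), LINC01322 (108.9), LINC00707 (91.9) and LINC00958 (87.4). Per kilobase of merged exon the order among these 5 was LINC00958 at 15.1, LINC00707 at 13.7, LINC01287 at 11.4, LINC00472 at 8.17 and LINC01322 at 6.72 CPM per kb. LINC00472 has 25534 bases of annotated exon and LINC01322 has 16208. On that scale LINC00431, annotated as a pseudogene of 159 bases with an exon overlap on the same strand, had the highest value, 69.2 CPM per kb. LINC00680 and LINC00674, with 181 and 160 bases, had 56.1 and 52.8 CPM per kb. These lengths come from a later release than the counted genes, so the values of such short records cannot be read as expression levels. Summed over members, the normalized level was 2936 ± 71.4 CPM in untreated and 3214 ± 116 in IFNγ-treated HT1376 CT, and 2472 ± 144 and 2504 ± 93.9 CPM in HT1376 FOXP3 KO (SD, n = 3).

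The largest contrast lay between the lines. All further levels are CPM normalized with the trimmed mean of M-values (TMM), and calls are edgeR quasi-likelihood tests with Benjamini-Hochberg adjusted p under 0.05 over all genes tested. In untreated cells 129 of 248 members differed between HT1376 FOXP3 KO and HT1376 CT, 57 higher and 72 lower. Over all 25320 genes tested 32.1% were called, with 14.0% higher and 18.2% lower. Under IFNγ 118 members differed, 54 higher and 64 lower, beside 28.9% of all 24388 genes tested (13.2% higher, 15.7% lower). Among genes with a mean of at least 1 CPM, the level the members had to reach, 42.5% of 15659 were called in untreated cells. Among members with a mean of 1 to 10 CPM, 48.6% of 183 were called in untreated cells, beside 44.7% of 2953 protein-coding genes at that level. At 10 CPM or more it was 61.5% of 65 members, beside 45.3% of 9271 protein-coding genes. Fold changes were compared by size in the same classes. At 10 CPM or more 20% of members and 6.33% of protein-coding genes had an absolute log2 fold change over 2, and the median absolute log2 fold change was 0.84 against 0.36. At 1 to 10 CPM the corresponding shares were 28.4% and 24.9%, and the medians 1.07 and 0.81. These are descriptions, since the level that selected the members includes both lines.

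**Figure D1:**
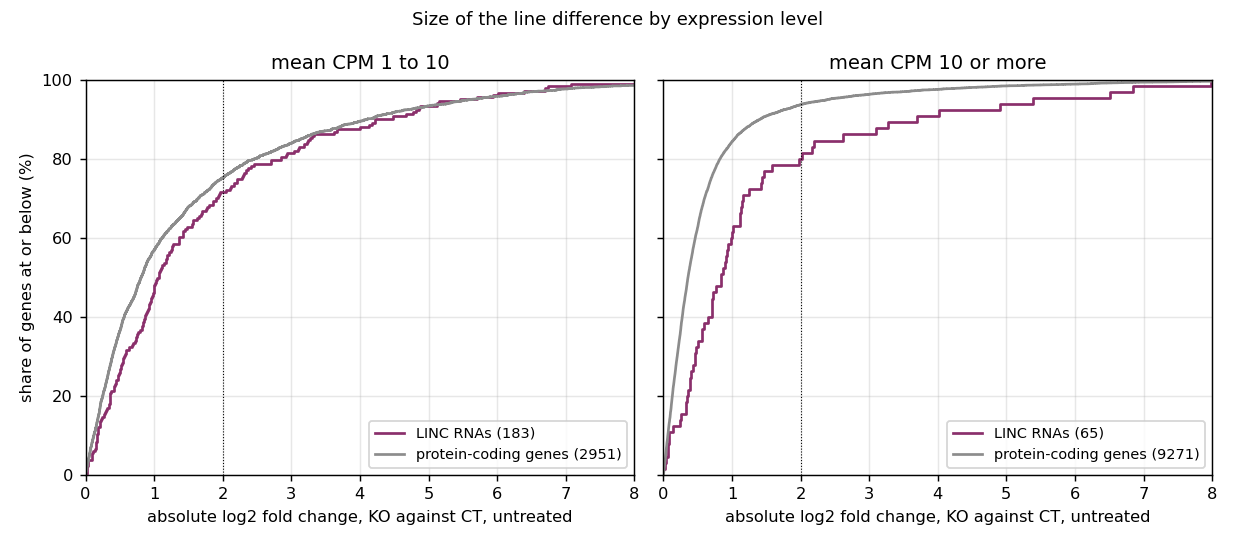
Share of genes (y axis, percent) with an absolute log2 fold change between untreated HT1376 FOXP3 KO and HT1376 CT at or below the value on the x axis, for LINC RNAs and protein-coding genes with a mean of 1 to 10 CPM (left) and of 10 CPM or more (right). The dotted line marks a log2 fold change of 2, beyond which lie 28.4% of LINC RNAs and 24.9% of protein-coding genes on the left, and 20% and 6.33% on the right.

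The line difference was the same in sign with and without IFNγ for 223 of 248 members. These comparisons share no library, but they set the same clones against each other, and treated and untreated libraries of a line with the same number deviated together. They are therefore not independent. The same shares over all genes are not given, so the agreement cannot be read as particular to LINC RNAs. Of the members called, 109 were called in both, which is 84.5% of the calls in untreated cells and 92.4% of those under IFNγ. All 109 went the same way, 48 higher and 61 lower in HT1376 FOXP3 KO. A log2 fold change beyond 2 in both comparisons was seen for 40 of the lower and 17 of the higher members. There were 20 members called in untreated cells alone and 9 called under IFNγ alone, and all 29 had the same sign in both. No library decided the counts, which lay between 109 and 155 in untreated cells and between 99 and 136 under IFNγ over the alternatives without a fold change threshold.

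**Figure D2:**
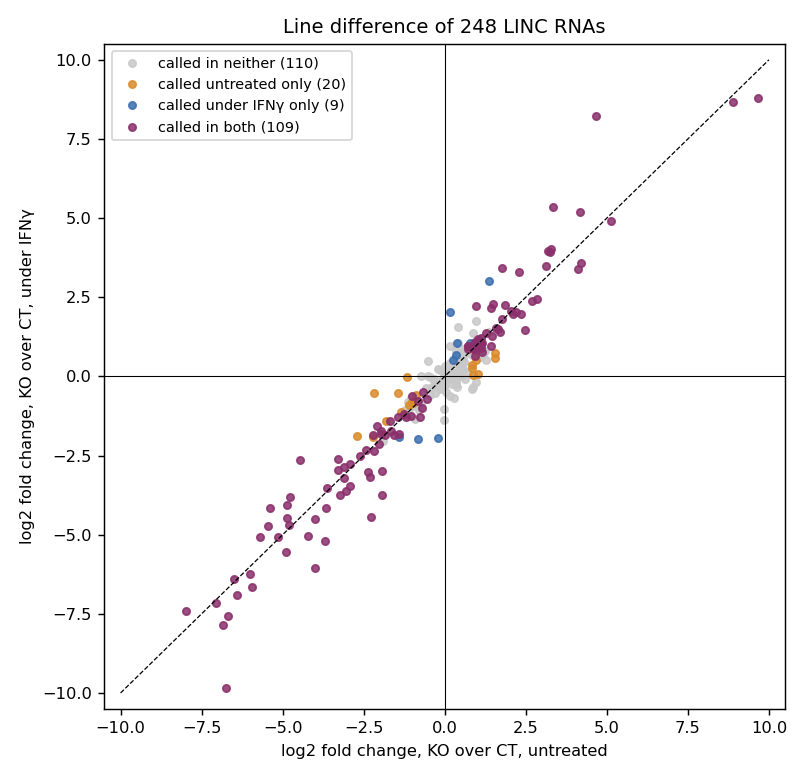
Each point is 1 of 248 LINC RNAs, with the log2 fold change of HT1376 FOXP3 KO over HT1376 CT in untreated cells (x axis) and under IFNγ (y axis), coloured by where it was called. The 109 called in both lie at the lower left and the upper right, along the dashed line of equal values.

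Among members lower in HT1376 FOXP3 KO, several were nearly absent from that line. LINC00707, described as a growth-promoting RNA in several cancers, was at 207, 146 and 212 CPM in untreated HT1376 CT (numbers 11, 12 and 13) and at 0.0430, 0.537 and 1.73 CPM in HT1376 FOXP3 KO. Every library of the control line was thus far above every knockout library. The log2 fold change was -7.99 ± 0.54 (SE, adjusted p = 1.41e-06), and under IFNγ it was -7.40 ± 0.32 (adjusted p = 7.76e-08). LINC00707 shares exon bases with unnamed genes on its own strand. LINC01468, now named LNCAROD and known as an activator of the WNT antagonist DKK1, was at 46.2, 40.2 and 32.4 CPM against 0.0860, 0.537 and 0.519 CPM in the untreated lines (log2 fold change -6.84 ± 0.37, adjusted p = 2.79e-07). Under IFNγ its fold change was -7.85 ± 0.24 (adjusted p = 1.2e-08). Its libraries did not overlap between lines in either condition, as is likely for an RNA picked by its fold change.

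LINC02448 had 92, 82 and 242 counts (5.37, 6.52 and 6.36 CPM) in untreated HT1376 CT and 0, 0 and 2 counts in HT1376 FOXP3 KO, a ratio of 159 (95% exact Poisson interval of the low count 44 to 1312). Under IFNγ the knockout libraries held 0, 0 and 1 counts, and the ratio was 231 (41.4 to 9103). LINC00900 was at 3.85, 4.45 and 5.44 CPM in untreated HT1376 CT and had 2, 0 and 0 counts in HT1376 FOXP3 KO, a ratio of 126 (34.8 to 1038), and a ratio of 243 (67.3 to 2008) under IFNγ. LINC00973 was at 1.28, 3.10 and 3.89 CPM and had 0, 1 and 0 counts in the knockout, a ratio of 160 (28.7 to 6307). Under IFNγ it was at 3.69, 12.7 and 8.16 CPM in HT1376 CT and at 0 counts in all knockout libraries, at least 135-fold lower against a floor of 3 counts over the group. All 3 RNAs were called in both comparisons (adjusted p = 1.61e-06 to 0.000172). Over all 6 libraries of HT1376 FOXP3 KO, 5 members had 10 or fewer counts, namely these 3 with LINC01807 and LINC01910 (1 to 4 counts each), the last 2 named after their values were seen. The intervals and floors cover counting error only.

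Other members were found almost only in HT1376 FOXP3 KO. LINC00560 was at 18.7, 13.1 and 18.4 CPM in that untreated line, and had 0, 0 and 1 counts in HT1376 CT, a ratio of 1179 (95% exact Poisson interval 212 to 46582). Under IFNγ the ratio was 552 (99.0 to 21793). LINC02518 was at 3.96, 3.05 and 1.90 CPM in HT1376 FOXP3 KO and was the only member with 0 counts in all 6 libraries of HT1376 CT, so that it was at least 69.4-fold higher in untreated cells and at least 34.8-fold higher under IFNγ against the floor of 3 counts over the group. LINC02476 was at 4.39, 2.60 and 2.25 CPM against 0.0584, 0 and 0.131 CPM (log2 fold change 5.12 ± 0.61, adjusted p = 8.88e-05). Under IFNγ HT1376 CT held 3 counts of it, a ratio of 29.3 (10 to 142). LINC01666 was at 2.49, 2.78 and 2.71 CPM against 0.117, 0 and 0.131 CPM in untreated cells (4.67 ± 0.56, adjusted p = 9.15e-05), and at least 25-fold higher under IFNγ, where HT1376 CT had 0 counts. LINC01554 was at 3.18, 4.12 and 3.63 CPM against 0.0584, 0.318 and 0.210 CPM (4.21 ± 0.48, adjusted p = 6.19e-05).

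Under IFNγ the largest increases also named LINC00885 and LINC00456. LINC00885 was at 13.1, 7.91 and 8.78 CPM in HT1376 FOXP3 KO and 0.388, 0 and 0.224 CPM in HT1376 CT (log2 fold change 5.35 ± 0.48, adjusted p = 1.19e-05). In untreated cells HT1376 CT ranged from 0.397 to 1.93 CPM and the difference was 3.34 ± 0.45 (adjusted p = 0.000226). LINC00456 was at 5.29, 2.25 and 2.88 CPM under IFNγ against 3 counts in all 3 HT1376 CT libraries, a ratio of 37.2 (12.7 to 180). The libraries of the lines did not overlap for any of these RNAs. They were picked for their large fold changes between the same libraries, so this is no further support.

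**Figure D3:**
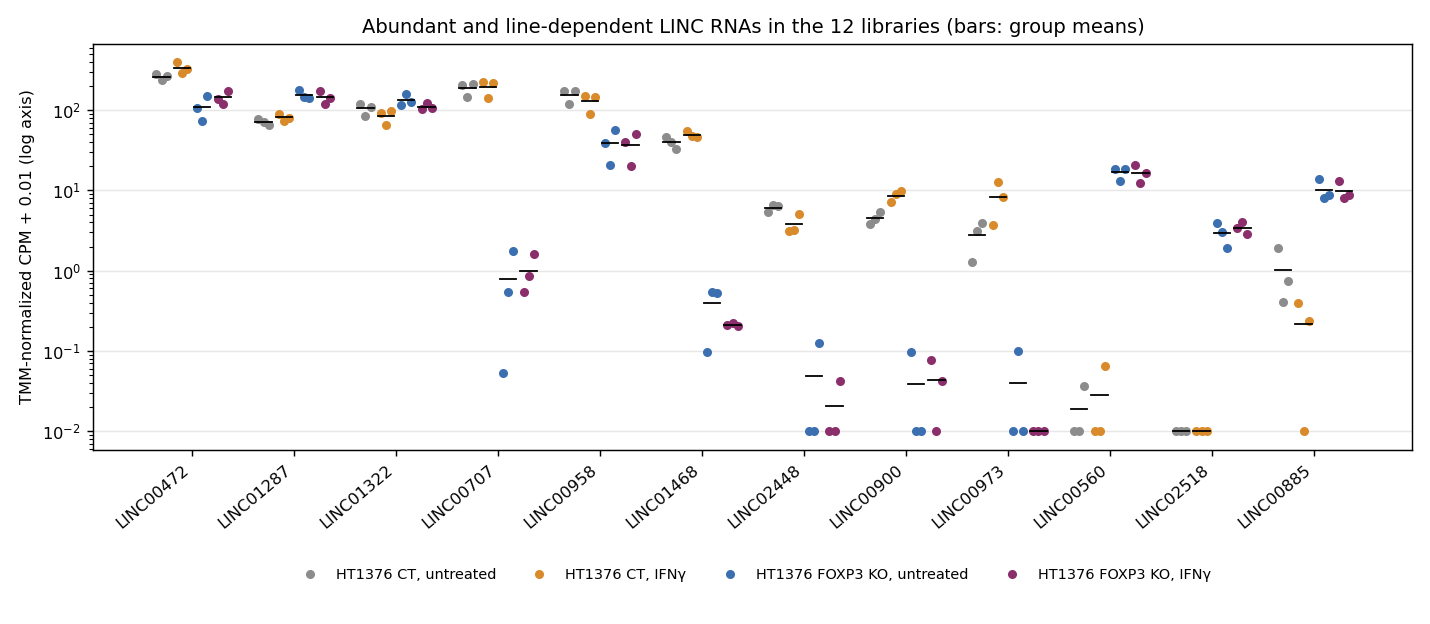
TMM-normalized CPM plus 0.01 (log axis) of 12 LINC RNAs in each library, with the 3 libraries of a group as points and their mean as a bar. LINC00707, LINC01468, LINC02448, LINC00900 and LINC00973 sit near the bottom in HT1376 FOXP3 KO and LINC00560 and LINC02518 in HT1376 CT, while LINC01322 is at 65.8 to 157 CPM in all 12 libraries.

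The most abundant members differed between the lines by smaller factors. LINC00472, whose exons hold the microRNA gene MIR30C2, was at 278, 237 and 268 CPM in untreated HT1376 CT and at 108, 72.9 and 148 CPM in HT1376 FOXP3 KO (log2 fold change -1.24 ± 0.21, adjusted p = 0.000924). Under IFNγ the difference was -1.17 ± 0.15 (adjusted p = 0.000191). LINC00958, also known as BLACAT2 and described in bladder cancer, was at 171, 120 and 172 CPM against 38.4, 20.9 and 56.9 CPM (-1.98 ± 0.29, adjusted p = 0.000371), and -1.74 ± 0.28 under IFNγ (adjusted p = 0.000857). LINC01287 went the other way, at 77.6, 71.2 and 65.9 CPM against 179, 146 and 141 CPM (1.13 ± 0.13, adjusted p = 5.76e-05), with 0.88 ± 0.16 under IFNγ (adjusted p = 0.00143). None of these 3 overlapped between lines, and the share of all genes without overlap is not given for comparison. LINC01322 was at 119, 84.8 and 111 CPM in untreated HT1376 CT and 116, 157 and 125 CPM in HT1376 FOXP3 KO, ranges that overlap, and was not called (0.35 ± 0.15, adjusted p = 0.111; 0.41 ± 0.15 under IFNγ, adjusted p = 0.0655).

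Of 20 LINC RNAs listed for a described role in cancer, 11 were members. In each condition HT1376 FOXP3 KO had higher levels of 3 of the 11 and lower levels of 6. With IFNγ 0 were called in either line. With the library number as a replicate block in the fit, LINC00467, LINC00520 and LINC02154 were called higher (log2 fold changes 0.75, 1.64 and 0.99) and LINC00958 lower (-0.26) in HT1376 CT, and LINC01133 higher in HT1376 FOXP3 KO (0.75, adjusted p = 4.59e-06, 0.000194, 0.000558, 0.00733 and 1.91e-08 in this order). Beside LINC00707 and LINC00958, the lower ones were LINC00511, LINC01234, LINC02154 and LINC00520. LINC00511, described as promoting proliferation in several carcinomas, was at 18.6, 34.3 and 29.0 CPM in untreated HT1376 CT and 4.56, 5.91 and 2.88 CPM in HT1376 FOXP3 KO (log2 fold change -2.62 ± 0.29, adjusted p = 4.95e-05). LINC01234 was at 16.1, 17.5 and 18.8 against 1.59, 2.78 and 1.09 CPM (-3.30 ± 0.29, adjusted p = 1.05e-05). LINC02154 and LINC00520 were lower by log2 fold changes of -2.42 ± 0.45 and -2.31 ± 0.56 (adjusted p = 0.00181 and 0.00945). The call of LINC00520 was lost without HT1376 CT number 13 (-2.06, adjusted p = 0.0619).

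The higher ones were LINC00662, LINC00665 and LINC01133. LINC00662 rose from 2.80, 2.15 and 2.47 CPM to 19, 13.0 and 16.1 CPM (log2 fold change 2.7 ± 0.22, adjusted p = 6.3e-06), and LINC00665 from 25.9, 21.7 and 24.8 to 53.6, 43.8 and 58.3 CPM (1.11 ± 0.14, adjusted p = 0.000127). LINC01133, described as binding the splicing factor SRSF6, was at 6.30, 6.36 and 11.4 CPM against 16.4, 10.6 and 20.8 CPM in untreated cells, ranges that overlap (0.98 ± 0.29, adjusted p = 0.025). That call was lost without HT1376 CT number 11 or 12 or HT1376 FOXP3 KO number 11 or 13 (0.80 to 1.0, adjusted p = 0.0626 to 0.0823). Under IFNγ it was at 3.98, 5.31 and 7.66 CPM against 26.1, 23.1 and 29.8 CPM, without overlap (2.24 ± 0.25, adjusted p = 5.23e-05). LINC00857, which starts 1800 bases from the gene ANXA11 in the opposite direction, and LINC00467 were not called between the lines (-0.32 ± 0.17 and 0.38 ± 0.15 in untreated cells, adjusted p = 0.164 and 0.0763).

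Where a member and its nearest coding gene were both called, all pairs but 1 in each condition moved the same way. A protein-coding start lay within 100 kb of 154 members, and the nearest such gene could be tested in untreated cells for 125 members (119 different genes). In 35 of these pairs both were called between the untreated lines, and 34 of the 35 went the same way, the exception being LINC00638 with ZBTB42. Among the 105 pairs that share no exon bases it was 30 of 31. Under IFNγ it was 35 of 36, the exception being LINC01554 with GLRX. Of the 125 members 60 were called, and of the 125 neighbours 62, beside 45.2% of protein-coding genes with a mean of 1 CPM or more. Across the 125 pairs Pearson's r of the log2 fold changes was 0.49 and Spearman's rho 0.58, a description over genes that share their libraries and, in part, their chromosomal region. With IFNγ in HT1376 CT both were called in 2 of 123 pairs, 1 of them in the same direction (Pearson's r 0.24). The same counts for other genes and their nearest coding genes are not given, so the agreement cannot be read as particular to LINC RNAs. For LINC02448 the neighbour was SLC16A7, a monocarboxylate transporter, 71845 bases away between starts, which fell by 5.61 on the log2 scale in untreated HT1376 FOXP3 KO (SE 0.384, adjusted p = 1.57e-06). For LINC00973 it was DCBLD2, which fell by 2.38 (SE 0.12, adjusted p = 1.71e-07). Further pairs were chosen after their values were seen. LINC01127 and IL1R2, the decoy receptor of interleukin-1, had log2 fold changes of -5.38 and -7.70, LINC02539 and TNFAIP3, an inhibitor of NF-κB signalling, -3.23 and -3.44, and LINC01814 and ID2 3.27 and 3.46. The 19 members with a divergent coding start within 2 kb held 3 calls between the untreated lines, beside 9 among their 19 neighbours.

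Chromosomes are given as examples chosen after their values were seen. On chromosome 2, 1 of 25 members was higher and 13 were lower in untreated HT1376 FOXP3 KO (median log2 fold change -0.82), while the other 1007 genes with a mean of 1 CPM or more had a median of -0.07. On chromosome 12 the 12 members had a median of -0.89 against 0.42 for 800 other genes. On chromosome 14 both were positive (0.99 for 11 members, 0.39 for 480 other genes), as on chromosome 7 for 15 members (0.71 and 0.07). Lower member medians than in these examples were seen on chromosomes 8, 18 and 4 (-2.4, -1.45 and -1.16, from 6, 9 and 6 members). Other genes there had medians of -0.50, -0.05 and -0.26.

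Promoter letters were read for the forkhead motif TGTTTAC, which proteins of the FOXP3 family can bind, on both strands of RefSeq promoters (GRCh38.p14, 250 bases before to 50 after the start). A promoter was listed for 154 of the 248 members. TGTTTAC was in 3 of 22 members that HT1376 FOXP3 KO held at over 4-fold lower levels in both conditions, 0 of 10 over 4-fold higher, 6 of all 154 members and 3.42% of 35116 promoters. The shorter motif TAAACA, which is contained in the reverse complement of the first, was in 7 of 22, 3 of 10, 23 of 154 and 12.3% respectively. These are matches of letters and not shown binding sites. The stretches below show the 4 matches of TGTTTAC in the 3 lower members, in capitals, as the place where a reader could look first. They lie at chr17:72640511-72640537 (minus strand, LINC00511), chr4:103424991-103425017 and chr4:103425018-103425044 (plus strand, both LINC02428) and chr3:194312999-194313025 (minus strand, LINC00887), centred 52, 38, 11 and 208 bases before the start. The start is that of 1 RefSeq promoter per member. For LINC02428 and LINC00887 it lies inside the gene, which starts at chr4:103255822 and chr3:194322871 in GENCODE 44.
LINC00511: ggccagcggcTGTTTACctgtgcaggg
LINC02428, farther match: gcaagtctatTGTTTACagaaggaatt
LINC02428, nearer match: aagcaacattTGTTTACctacttcatt
LINC00887: atttatcatcTGTTTACtcagagaaac

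IFNγ, the cytokine that signals through its receptor and JAK kinases to interferon-response genes, was set against no treatment in each line. Without a replicate block 12 of 244 members tested (4.92%) were called in HT1376 CT, 11 higher and 1 lower. Over all 24416 genes it was 5.35% (3.53% higher, 1.82% lower), a share like that of the members. In HT1376 FOXP3 KO 5 of 243 were called, all higher, beside 0.982% of 24131 genes. The 5 were all among the 11 of HT1376 CT. Libraries with the same number deviated together, so the number was also fitted as a replicate block. With the block, 45 members were called in HT1376 CT (35 higher, 10 lower) beside 18.6% of all genes, and 22 in HT1376 FOXP3 KO (17 higher, 5 lower) beside 5.53%. Over all genes the block calls were 2118 higher and 2412 lower in HT1376 CT, and 947 higher and 387 lower in HT1376 FOXP3 KO. Of the members, 16 were called in both lines with the same direction, 35.6% of the member calls in HT1376 CT and 72.7% of those in HT1376 FOXP3 KO. The same shares over all genes are not given. The block calls included all 12 and all 5 of the calls without it. In HT1376 FOXP3 KO the count without the block was 3 when number 11 or 13 of the untreated or number 11, 12 or 13 of the treated libraries was left out.

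LINC01675 had the largest fold in both lines. It was at 0, 0.715 and 0.289 CPM in untreated and 3.20, 2.31 and 2.35 CPM in treated HT1376 CT (log2 fold change 3.08 ± 0.74, adjusted p = 0.0325), and at 0.430, 0.537 and 0.115 against 3.08, 3.21 and 2.24 CPM in HT1376 FOXP3 KO (3.0 ± 0.51, adjusted p = 0.0265). It was picked by its fold change, and treated and untreated libraries did not overlap in either line. The call was lost in HT1376 CT without untreated number 13 or treated number 11 or 13 (2.91 to 3.16, adjusted p = 0.0896 to 0.147), and in HT1376 FOXP3 KO when any library other than untreated number 12 was left out (2.57 to 3.23, adjusted p = 0.0631 to 0.144). LINC02100 rose from 1.05, 1.99 and 1.24 CPM to 8.54, 9.23 and 9.0 CPM in HT1376 CT (2.69 ± 0.30, adjusted p = 0.000201) and from 1.38, 1.16 and 1.21 to 5.96, 8.55 and 5.44 CPM in HT1376 FOXP3 KO (2.41 ± 0.29, adjusted p = 0.00286).

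LINC00944 had the smallest adjusted p of all members in both lines. It rose from 9.46, 13.0 and 10.8 CPM to 50.7, 54.0 and 57.8 CPM in HT1376 CT (log2 fold change 2.32 ± 0.15, adjusted p = 2.2e-06), and from 6.41, 7.25 and 5.82 CPM to 21.8, 23.8 and 19.3 CPM in HT1376 FOXP3 KO (1.76 ± 0.18, adjusted p = 0.000725). It overlaps LINC00943 on the opposite strand. LINC01138, described as binding PRMT5 and IGF2BP1, rose from 7.71, 11.4 and 6.10 to 21.2, 23.8 and 23.9 CPM in HT1376 CT (1.49 ± 0.23, adjusted p = 0.00203) and from 9.38, 9.13 and 6.57 to 19.2, 18.7 and 17.2 CPM in HT1376 FOXP3 KO (1.16 ± 0.19, adjusted p = 0.0204). The latter call was lost without any library but untreated number 12 (1.0 to 1.25, adjusted p = 0.0565 to 0.133). LINC01232, which overlaps exons of TM9SF2 on the opposite strand, rose from 10.7, 16.4 and 9.96 to 34.9, 30.9 and 36.3 CPM (1.5 ± 0.20, adjusted p = 0.000657) and from 23.3, 20.8 and 21.4 to 45.7, 37.4 and 43.6 CPM (0.97 ± 0.12, adjusted p = 0.00386), while TM9SF2 itself was at 353 ± 24.5 and 368 ± 13.8 CPM in untreated and treated HT1376 CT (SD, n = 3) and was not called. For these 3 RNAs, picked among calls of the same comparisons, no treated library overlapped an untreated one.

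Of the others called in HT1376 CT, LINC02577 rose from 2.34, 6.60 and 4.26 CPM to 22.1, 33.9 and 17.7 CPM (log2 fold change 2.50 ± 0.35, adjusted p = 0.00105), with library number 12 highest in each of the 4 groups. LINC01752 rose from 1.17, 0.795 and 0.841 to 6.11, 3.0 and 5.09 CPM (2.39 ± 0.37, adjusted p = 0.0025), whereas the nearest coding gene JAG1, a NOTCH ligand 22950 bases away, was at 149 ± 9.61 and 144 ± 22.8 CPM (SD, n = 3). LINC02328 rose from 1.17, 0.954 and 1.26 to 6.01, 4.85 and 6.09 CPM (2.33 ± 0.31, adjusted p = 0.000763). In HT1376 FOXP3 KO these 3 had log2 fold changes of 1.24 ± 0.34, 1.84 ± 0.53 and 2.58 ± 0.67 without a call (adjusted p = 0.295, 0.36 and 0.229). All 3 were called there with the replicate block (edgeR, adjusted p = 5.17e-15, 0.0356 and 0.000145). The size of such a p-value depended on the setting: with the bias-adjusted deviance in the blocked fit it was 8.12e-06 for LINC02577.

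LINC01215, LINC02407 and LINC00649 were also called in HT1376 CT and are named after their values were seen. LINC01215 lies 33959 bases from CD47, the gene of a surface protein that restrains phagocytosis, and rose from 1.17, 1.19 and 1.26 to 2.62, 7.15 and 4.58 CPM (log2 fold change 1.95 ± 0.41, adjusted p = 0.0162), while CD47 rose from 102 ± 9.18 to 251 ± 25.5 CPM (SD, n = 3; 1.33 ± 0.12, adjusted p = 3.22e-05). The call of LINC01215 was lost without untreated number 11 or 13 or treated number 13 (adjusted p = 0.0633 to 0.0762), without all libraries numbered 12 (1.59, adjusted p = 0.0661) and in 1 fit of all 12 libraries (adjusted p = 0.0679). LINC02407, now named LNCOG, rose from 11.4, 7.15 and 11.3 to 27.6, 16.2 and 21.4 CPM (1.15 ± 0.23, adjusted p = 0.0132) and had 0 to 11 counts in each library of HT1376 FOXP3 KO. It lost the call without treated number 11 or 13 (adjusted p = 0.0529 and 0.0571) and in 1 fit of all 12 libraries (adjusted p = 0.0662). LINC00649, which overlaps ATP5PO, rose from 65.3, 96.9 and 62.5 to 113, 134 and 115 CPM (0.71 ± 0.17, adjusted p = 0.0299), without the call when untreated number 11 or 13 or treated number 12 or 13 was left out (adjusted p = 0.0784 to 0.139).

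LINC00346, now named PRECSIT, was the only member lower with IFNγ without the block. It fell from 69.4, 67.5 and 60.4 CPM to 48.3, 34.9 and 47.0 CPM in HT1376 CT (log2 fold change -0.57 ± 0.14, adjusted p = 0.0354), and in HT1376 FOXP3 KO it was at 35.0, 33.5 and 29.7 CPM untreated and 29.5, 27.6 and 25.5 CPM treated (-0.23 ± 0.13, adjusted p = 0.999). The neighbour ANKRD10 rose in HT1376 CT (0.69 ± 0.10, adjusted p = 0.0019), the opposite direction. The call of LINC00346 was lost when any library of HT1376 CT other than treated number 11 was left out (-0.63 to -0.46, adjusted p = 0.0581 to 0.143), and without all libraries numbered 12 (-0.43, adjusted p = 0.0792).

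**Figure D4:**
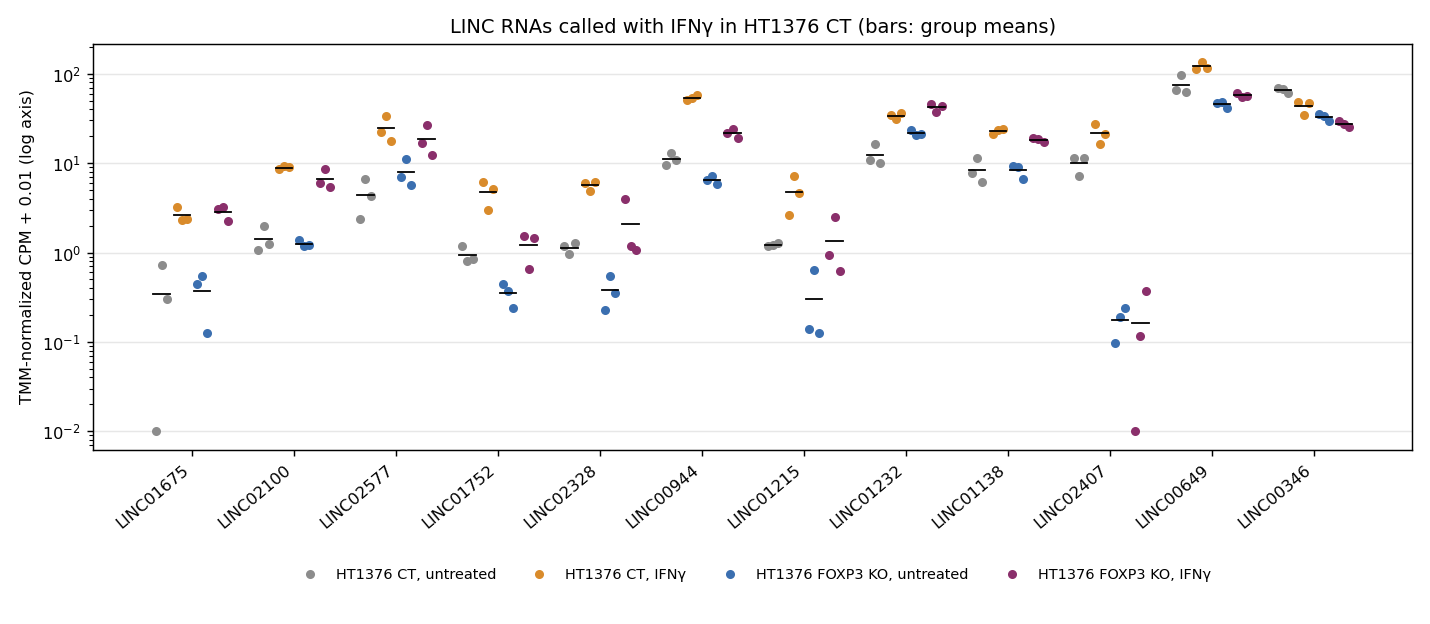
TMM-normalized CPM plus 0.01 (log axis) of the 12 LINC RNAs called with IFNγ in HT1376 CT, with the 3 libraries of a group as points and their mean as a bar. In 11 of them the treated HT1376 CT libraries lie above the untreated ones, and in LINC00346 below.

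Promoter letters were also read for the gamma-activated site TTCNNNGAA, and the interferon-stimulated response core, which is GAAA, 2 bases of any kind and GAAA, on both strands. A RefSeq promoter was listed for 5 of the 11 members higher with IFNγ in HT1376 CT. TTCNNNGAA was in 2 of the 5, in 10 of 154 members and in 7.66% of 35116 promoters, and the response core was in 1 of the 5, in 4 of 154 and in 3.57%. The matches are shown in capitals because these members are the ones that rose. They lie at chr13:99499536-99499556 (minus strand, LINC01232, 244 bases before the start), chr3:108125769-108125797 (plus strand, LINC01215, 38 bases before the start) and chr1:148459882-148459911 (minus strand, LINC01138, 24 bases after the start). The RefSeq start used for LINC01138 lies inside the gene, which starts at chr1:148519604 in GENCODE 44. LINC02407 and LINC01752 held neither motif.
LINC01232: ttTTCCAGGAAacggcatcgc
LINC01215: ccacagaaggTTCACTGAAgcctgagaaa
LINC01138: gtcacatctgGAAATGGAAAgccgacctcc

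The difference between the lines in their response to IFNγ was tested with an interaction term in a fit of all 12 libraries. By edgeR 0 of 248 members were called, beside 0.111% of 27806 genes, and the smallest adjusted p was 0.373. An unadjusted p under 0.05 was seen for 13 of the 248 members, beside 1727 of the 27806 genes, so the share among members was no larger. DESeq2 called 0 members as well. With the replicate block, which assumes that the numbers also pair libraries between the lines, 3 members were called, beside 1.21% of all genes. LINC02577 had a weaker rise in HT1376 FOXP3 KO, where it was at 7.01, 11.2 and 5.70 CPM untreated and 16.6, 26.5 and 12.5 CPM treated (difference of the log2 fold changes, HT1376 FOXP3 KO minus HT1376 CT, -1.26 ± 0.27, adjusted p = 0.0118). LINC01133 differed by 1.28 ± 0.26 (adjusted p = 0.00774) and LINC00431 by -1.58 ± 0.40 (adjusted p = 0.0408). With the block fitted within each line, an alternative added after the data were seen, 10 members were called beside 4.75% of all genes.

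**Figure D5:**
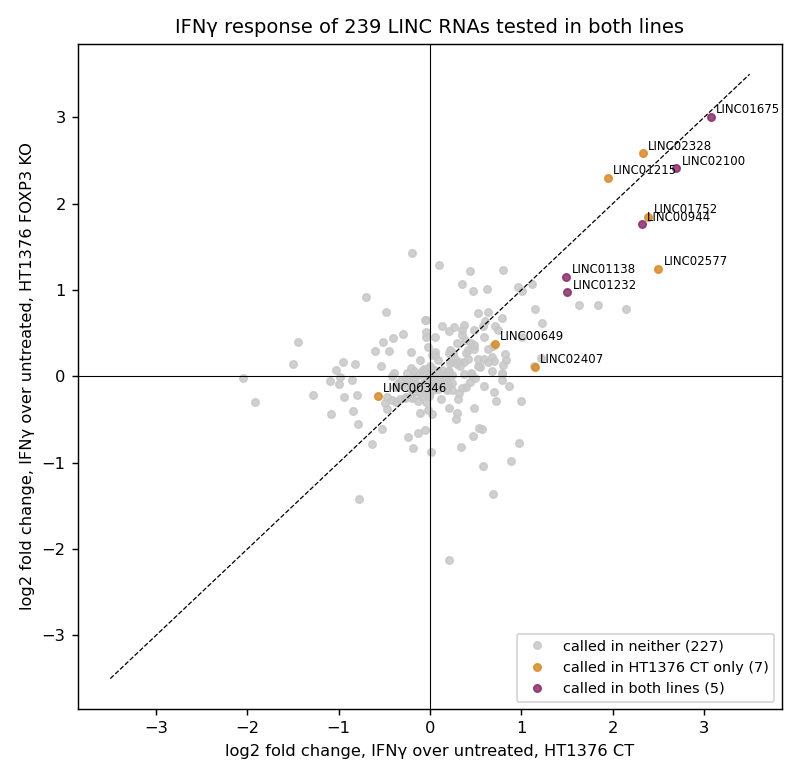
Log2 fold change of IFNγ-treated over untreated cells in HT1376 CT (x axis) and HT1376 FOXP3 KO (y axis) for 239 LINC RNAs tested in both lines. The 5 called in both lines and 6 of the 7 called in HT1376 CT alone lie at the upper right, where both values are above 0, and LINC00346 at the lower left.

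Long noncoding RNAs with other names were set beside the members from lists. Of 44 well-known ones, 40 could be tested between the untreated lines, of which 9 rose and 12 fell in HT1376 FOXP3 KO. Under IFNγ the counts were 11 and 12. BLACAT1 fell by 8.0 and CASC15 by 4.73 on the log2 scale in untreated cells, and the abundant nuclear RNAs MALAT1 and NEAT1 had log2 fold changes of 0.76 and -0.49 (all called). With IFNγ UCA1 was higher and DANCR lower in HT1376 CT (1.14 and -0.84), and 0 of 38 were called in HT1376 FOXP3 KO. Of 10 lncRNAs linked with interferon genes, 9 were found. HCP5, PSMB8-AS1 and BISPR rose in both lines, from 17.4 to 451, 3.37 to 25.9 and 3.42 to 11.2 CPM in HT1376 CT (group means), and none of the others that could be tested was called in either line. Between the lines 2 of 7 of these were called in untreated cells and 3 of 8 under IFNγ, each at a lower level in HT1376 FOXP3 KO.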

How the data were processed

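The authors aligned paired-end reads of ribosome-depleted total RNA with STAR (2.7.11a in the submitters' processing notes) to GRCh38 (Ensembl 103 genes), filtered out Mycoplasma reads by Kraken, counted reads per gene with htseq-count and deposited the raw counts. How strand and multi-gene reads were handled is not given in the sources used here. All 12 columns were used, and groups follow the sample labels.

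Genes with at least 10 counts in total in the libraries compared were fitted with edgeR 4.0.16 (R 4.3.3), with TMM normalization and the quasi-likelihood test, and p-values were adjusted over all genes tested. Pairs of groups were fitted on their 6 libraries and the interaction on all 12. DESeq2 1.42.0, other filters, another normalization, a replicate block and leaving out each library were alternatives. Replicate numbers 11, 12 and 13 occur in every group. Deviations of libraries with the same number correlated in every pair (r across genes 0.435 to 0.692 within a line, 0.17 to 0.422 between lines). For different numbers r was -0.556 to 0.0814 within a line and -0.378 to 0.227 between lines. The ranges were apart within a line but overlapped between lines. Treated HT1376 CT number 11 had r of 0.227 with treated HT1376 FOXP3 KO number 13 and 0.17 with number 11. The numbers were taken to pair the libraries, which is less clear between lines, where the block of the interaction relies on it. The labels do not say what a number marks. No library was a copy of another.

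Positions and exon lengths come from GENCODE 44, a later release than the authors', and promoters from RefSeq. The members and lists were chosen with earlier results of these data known. A few listed genes are not reported here and are left out of the counts of their lists. The rule for named members took the 5 highest by level, up to 5 increases and 5 decreases per comparison among calls, up to 5 for the interaction, the 3 on each side of the threshold and those with a described role. An adjusted p tests the spread between libraries of 1 clone per line, estimated with help from the other genes tested. In the blocked fits of 6 libraries its size depended strongly on the setting. For LINC01133 with IFNγ in HT1376 FOXP3 KO edgeR gave 1.91e-08, and 0.000849 with the bias-adjusted deviance.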

Additional observations from a re-analysis of the deposited data

Results flagged for a closer look

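For 3 LINC RNAs the response to IFNγ differed between the lines by the interaction test of edgeR once the replicate number was fitted as a block. That block assumes that the numbers pair libraries between the lines, which is less clear than within a line. They are 3 of 248 members, beside 1.21% of all genes called in that fit, a share like that of the members. Without the block all 3 missed the threshold (adjusted p = 0.373 to 0.74), except with every gene of at least 1 count tested, where all 3 were called (adjusted p = 0.0172 to 0.0246). The cause of these changes was not tested. LINC01133 had a log2 fold change with IFNγ that was higher by 1.28 in HT1376 FOXP3 KO than in HT1376 CT (adjusted p = 0.00774). It was at 6.30, 6.36 and 11.4 CPM untreated and 3.98, 5.31 and 7.66 CPM treated in HT1376 CT, and at 16.4, 10.6 and 20.8 CPM against 26.1, 23.1 and 29.8 CPM in HT1376 FOXP3 KO. LINC02577 had a difference of -1.26 (adjusted p = 0.0118), with a rise in both lines. LINC00431 had a difference of -1.58 (adjusted p = 0.0408), from 15.1, 18.0 and 20.3 to 30.8, 20.8 and 26.8 CPM in HT1376 CT and from 1.55, 1.16 and 1.33 to 0.268, 0.642 and 0.972 CPM in HT1376 FOXP3 KO. Its call was lost when edgeR used its bias-adjusted deviance in the blocked fit (-1.55, adjusted p = 0.175). LINC00431 covers 159 bases and shares exon bases with an unnamed gene on the same strand. Without all libraries numbered 12 the differences were 1.27, -1.27 and -1.65, also without a call (adjusted p = 0.333 to 0.446).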

How the results depend on the processing

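The number of members ran from 245 to 252 when single libraries were left out, and was 336 at a mean of 0.5 CPM and 174 at 2 CPM. The line comparisons kept their counts within 1.5 times under every alternative run. Leaving out 1 library gave 109 to 133 calls in untreated cells, 99 to 117 under IFNγ, 8 to 13 for IFNγ in HT1376 CT, 3 to 5 in HT1376 FOXP3 KO and 0 for the interaction. The counts for IFNγ moved with the processing. With every gene of at least 1 count tested, 26 members were called in HT1376 CT, 8 in HT1376 FOXP3 KO and 5 for the interaction. DESeq2 called 20 in HT1376 CT. The replicate block gave 45, 22 and 3 calls, the replicate block with the bias-adjusted deviance 46, 17 and 3, and the replicate block within each line 10 for the interaction. The 3 calls for the interaction under the bias-adjusted deviance do not include LINC00431, which was called with the plain block. The cause of these moves was not tested. No named fold change reversed. In the shallowest library, with 4490684 counts, 3 counts correspond to 0.668 CPM, close to the threshold of 1 CPM. Without it 12 members were called by edgeR with IFNγ in HT1376 CT, as many as with it, but not the same ones. All 12 were higher, and LINC00346 and LINC00649 lost their calls (adjusted p = 0.0581 and 0.0784).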
